A study of Mus musculus with 2 samples.

Results

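The genes described here are 8 haematopoietic cytokine receptor genes, Kit, Csf1r, Csf3r, Csf2ra, Csf2rb, Csf2rb2, Il6ra and Ifngr1, taken by name from the 32285 genes of the count matrices. They were measured in every cell that held at least 8000 unique molecular identifiers (UMIs, the count of distinct captured RNA molecules) with under 10% of them from mitochondrial genes, by library and by cell group. All 8 genes were found and all 8 reached a mean of 10 CPM (the UMIs of a gene per 1000000 UMIs, both summed over the cells). The cells were bone marrow LSKs, profiled 1 by 1 with a 3′ kit of 10x Genomics, the lineage-negative, Sca-1-positive and c-Kit-positive fraction that holds stem cells and early progenitors. The mice were 8 to 10 weeks old, on a B6 background, and carried SCLtTA/BCR-ABL, a transgene pair in which the SCL promoter drives BCR-ABL once tetracycline is withdrawn. Cells were taken 2 weeks after induction. The libraries differ in the microRNA miR-142, which was intact in 1 of them (labelled miR-142 WT CML) and deleted in the second (labelled miR-142 KO CML). Both groups therefore carried BCR-ABL, the fusion kinase of chronic myeloid leukemia (CML), and no library without it was analysed here. How many mice gave cells to a library is not given in the sources used here. With 1 library for each genotype nothing could be tested against the spread between mice, and every interval below is a 95% interval that covers counting error only.

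Cytokine receptors at the surface of blood progenitors carry signals for survival, division and choice of lineage. Kit (the receptor of stem cell factor) and Csf1r (the receptor of macrophage colony-stimulating factor) are receptor tyrosine kinases. Csf3r binds granulocyte colony-stimulating factor, Csf2ra is the GM-CSF-binding chain, Csf2rb is the signalling chain shared by the GM-CSF, IL-3 and IL-5 receptors, and Csf2rb2 is a mouse beta chain that serves the IL-3 receptor only. Il6ra binds IL-6 and signals through Il6st (gp130), and Ifngr1 is the ligand-binding chain of the interferon gamma receptor. These chains have no kinase of their own and signal through JAK kinases and STAT factors.

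The libraries differ in miR-142, a microRNA of blood cells with 2 mature arms. A microRNA pairs with messages mainly through its seed, bases 2 to 8, shown in capitals in the mature sequences (RefSeq, GRCm38.p6), which lie at chr11:87756903-87756925 and chr11:87756867-87756887 on the plus strand:
miR-142a-3p: uGUAGUGUuuccuacuuuaugga
miR-142a-5p: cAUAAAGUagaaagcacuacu
The 3′ ends of 7 receptor messages, those other than Kit, from the stop codon of the GENCODE vM21 model on, were searched on the sense strand for the 7 bases that pair with each seed, ACACTAC for the 3p arm and ACTTTAT for the 5p arm. Il6ra held 1 match to the 3p arm, 936 bases after its stop codon (chr3:89870219-89870225, minus strand). It is printed below because it is the position in this message where the deleted microRNA could pair, with the match in capitals:
Il6ra: ccgctcactgcACACTACtgtatgaaccc
Csf1r held 1 match to the 5p arm, and Csf3r, Csf2ra, Csf2rb, Csf2rb2 and Ifngr1 held none. Of the partner chains searched, Il6st held 2 matches to each arm, and Ifngr2 and Il3ra held none. For each gene the model with the longest 3′ end was searched. Over 7334 expressed genes with such a 3′ end, 7.19% held the 3p match and 16.3% the 5p match. A match describes letters in a message and not a site in use. Whether any match bears on a receptor's level was not tested.

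The WT library held 5363 cells with 138183896 UMIs and the KO library 5458 cells with 158438757 UMIs. A median cell held 19443 UMIs in WT and 24181.5 in KO, so shares of cells with a UMI are given after thinning, in which each cell was reduced at random to 8000 UMIs. Both libraries shared 4 cell barcodes, 0.0746% of the WT and 0.0733% of the KO cells. The knockout was checked on Mir142hg, the host transcript of miR-142, which had 1260 UMIs (9.12 CPM) in WT and 20 UMIs (0.126 CPM) in KO. Ly6a, which encodes Sca-1, stood at 96.8 CPM (WT) and 153 CPM (KO). T cell markers were near 0, with 0.934 and 0.574 CPM summed over 5 genes and Cd3e at 0 in WT. Since the sort selected c-Kit protein, the Kit levels below are those of cells chosen for carrying it.

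Over all cells, the interferon gamma receptor chain Ifngr1 and the IL-3 receptor chain Csf2rb2 were the receptors that stood higher in the KO library by more than 1.5-fold. Ifngr1 had 15243 UMIs (110 CPM) in WT and 30195 UMIs (191 CPM) in KO, and the log2 ratio of KO over WT was 0.79 (0.76 to 0.82). Csf2rb2 had 2582 UMIs (18.7 CPM) in WT and 4831 (30.5 CPM) in KO, for a ratio of 0.71 (0.64 to 0.78). With a threshold of 1.5-fold, 2 of the 8 receptors were called higher and 0 lower, where 2.78% of 7483 genes with a mean of 10 CPM were called higher and 4.86% lower. No receptor reached 2-fold. The median log2 ratio of the 8 genes was 0.18, against -0.08 over all tested genes. The call of Csf2rb2 was lost at a cutoff of 16000 UMIs (0.39), without cells of 2 or more gates and the 6% of cells with most UMIs (0.41), and without mast cell-like, basophil-like and 2-gate cells (0.018), groups that are defined below.

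The other 6 receptors differed by less. The chains of the GM-CSF receptor were both higher in KO. Csf2ra stood at 40.9 CPM (WT) and 51.5 CPM (KO), a log2 ratio of 0.33 (0.28 to 0.38), and Csf2rb at 59.6 and 72.9 CPM, a ratio of 0.29 (0.25 to 0.33). The granulocyte receptor Csf3r was nearly level, at 31.04 and 32.46 CPM with a log2 ratio of 0.06 (0.01 to 0.12). The receptors lower in KO were the stem cell factor receptor, the macrophage receptor and the IL-6 receptor. Kit stood at 86.4 CPM (WT) and 68.3 CPM (KO) (log2 ratio -0.34, -0.38 to -0.30), Csf1r at 11.4 and 9.16 CPM (-0.32, -0.42 to -0.21) and Il6ra at 14.6 and 11.5 CPM (-0.35, -0.44 to -0.26). Counts came from message 3′ ends, so levels are compared for 1 gene at a time and not between genes.

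Shares of cells with a UMI followed most of these levels. After thinning, a Kit UMI was seen in 50.8% of WT and 42.1% of KO cells, a Csf2rb UMI in 28.5% and 36.4%, and an Ifngr1 UMI in 48.1% and 60.9%. Before thinning the Kit shares were 77.8% and 74.1%, those of Csf2rb 53.2% and 67.9%, and those of Ifngr1 74.1% and 81.6%. Csf1r and Csf3r departed from their summed levels. The Csf1r share was 5.03% in WT and 5.97% in KO while its CPM was lower in KO, and the Csf3r share was 23.1% and 22.4% while its CPM was higher in KO, so no order is read from either share. A typical cell held UMIs of about 2 of the 8 receptors, a mean of 1.999 in WT and 2.16 in KO, and 8.82% of WT and 6.47% of KO cells held none of them at this depth.

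Cells were then sorted into groups by summed marker UMIs of the thinned cells, with lists that hold none of the 8 receptors. HSC-like cells passed a gate on stem cell genes such as Hlf, Procr and Mecom, and lymphoid-primed-like cells one on genes such as Dntt. Granule-high cells passed a gate on Elane, Mpo, Prtn3 and Ctsg, genes of primary neutrophil granules, and on Ms4a3. Granule-high cells were split by whether neutrophil genes such as S100a8 and Fcnb or monocyte genes such as Irf8 and Ly86 outweighed the others by 2 times. Mast cell-like and basophil-like cells passed a shared gate on genes of both, such as Cpa3 and Ms4a2. They were mast cell-like where UMIs of Cma1, Tpsb2 and Tpsab1 exceeded those of Mcpt8, Prss34 and Cd200r3, and basophil-like otherwise. Cells that passed no gate were split by cell cycle genes. These gates are ranges and not types, and 26.6% of WT and 13.6% of KO cells lay within 1.5 times of the HSC gate. Group sizes differed widely between the libraries. HSC-like cells made up 22.3% of WT (1197 cells) and 4.78% of KO (261 cells), whereas granule-high cells that leaned to neutrophil genes made up 1.38% of WT (74 cells) and 26.5% of KO (1449 cells). Granule-high cells without a leaning were 6.64% and 20.9%, those leaning to monocyte genes 9.10% and 5.203%, and mast cell-like cells 2.09% and 2.40%. In 9 groups both libraries held 50 cells or more, and receptors were compared between libraries within those. Cells that passed 2 or more gates were 4.90% of WT and 6.50% of KO and are left out of the group comparisons.

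**Figure D1:**
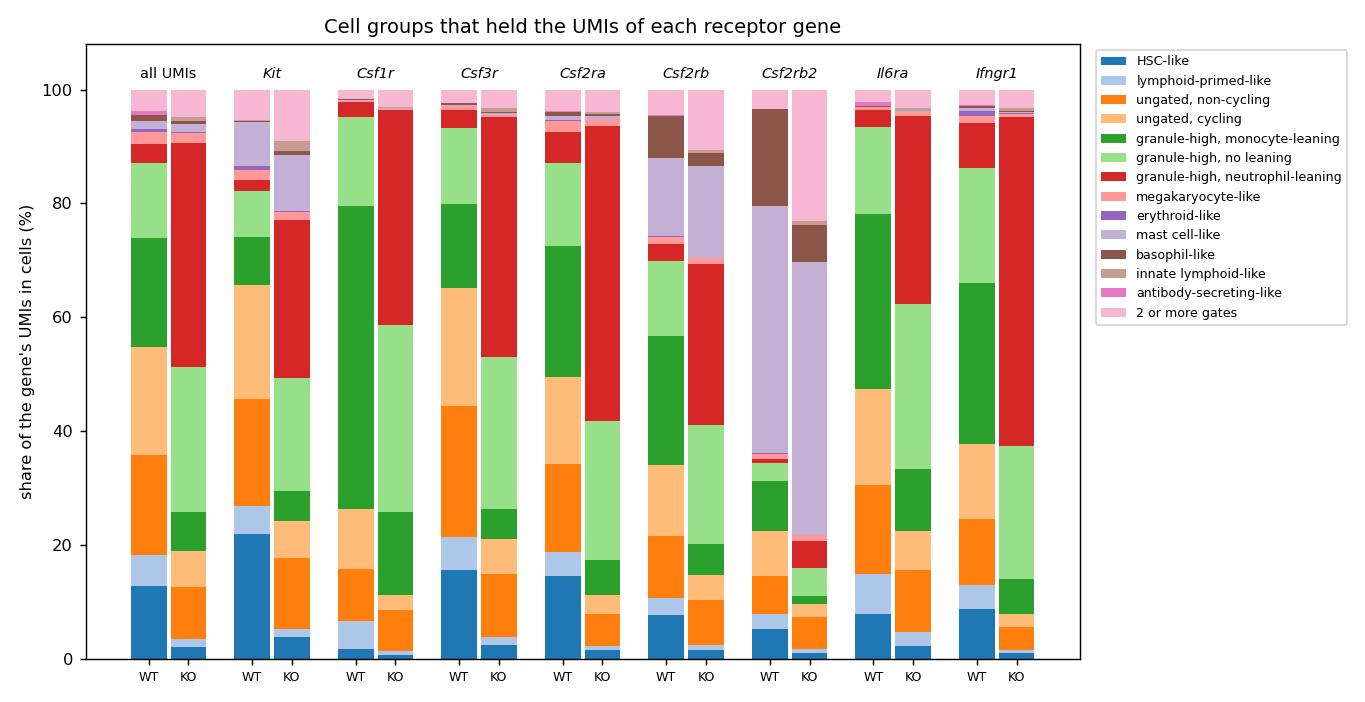
Each pair of stacked bars gives, for all UMIs and for each receptor gene, the share (%, vertical axis) of the UMIs of the WT and the KO library that fell in each cell group (colours). In the KO library 57.7% of Ifngr1 UMIs were in neutrophil-leaning granule-high cells against 7.91% in WT, and mast cell-like cells held 43.5% (WT) and 47.9% (KO) of Csf2rb2 UMIs.

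With these group sizes set equal, the order of the differences changed. When both libraries were weighted to 1 composition of the 9 groups, the mean of both libraries' shares of UMIs, the log2 ratio of Ifngr1 was 0.067 in place of 0.79, that of Csf2ra -0.059 in place of 0.33 and that of Kit -0.053 in place of -0.34. The 3 values were near 0 on the scale of a 1.5-fold call. Csf2rb2 kept a ratio of 0.80, Csf2rb 0.23, Csf1r -0.34, Il6ra -0.21 and Csf3r 0.05. Of 72 receptor and group pairs, those with a mean of 10 CPM or more included 8 called 1.5-fold higher in KO and 1 lower, and all 8 were of Csf2rb or Csf2rb2.

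**Figure D2:**
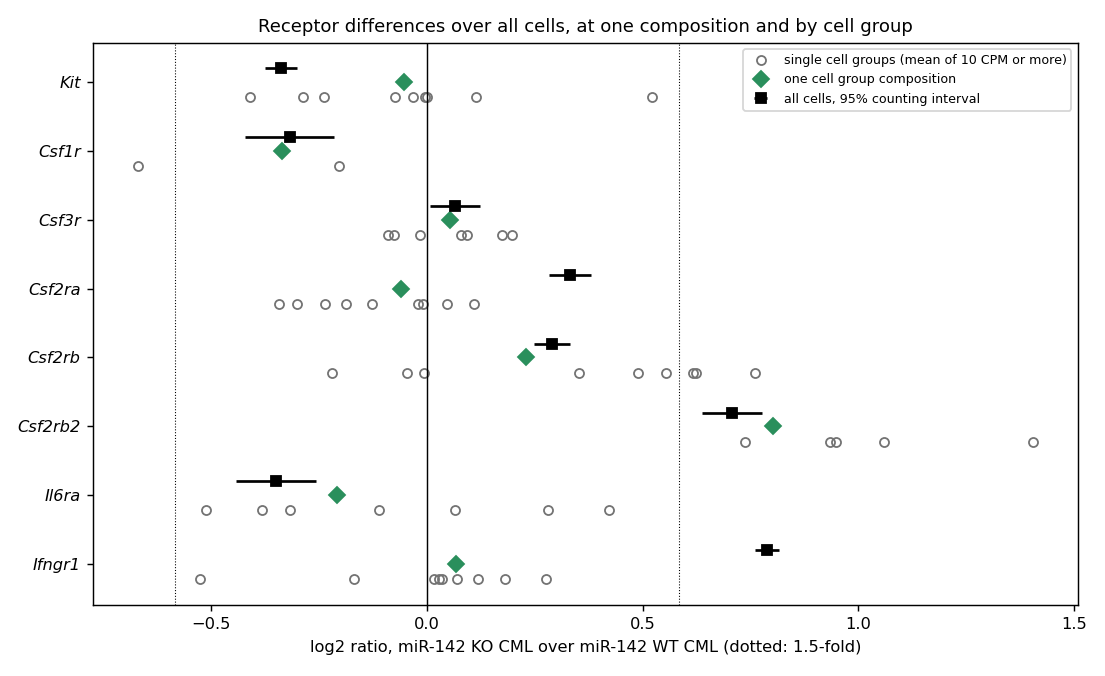
Log2 ratios of KO over WT (horizontal axis) for each receptor over all cells (black squares with 95% counting intervals), weighted to 1 cell group composition (green diamonds) and in single cell groups with a mean of 10 CPM or more (open circles), with dotted lines at 1.5-fold. For Ifngr1 the all-cell value of 0.79 lies beyond every single group, whose values run from -0.53 to 0.27, whereas for Csf2rb2 the circles lie at 0.74 or higher.

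Kit, on chromosome 5 (75574916 to 75656722, plus strand, GRCm38, ENSMUSG00000005672), was highest, among groups of 50 cells or more, in mast cell-like cells, at 434 CPM (406 to 463) in WT and 469 CPM (441 to 498) in KO. Mast cells keep Kit as they mature, while most other lineages lose it. HSC-like cells followed in WT at 148 CPM (142.5 to 153.9), with 126 CPM (114 to 138) in KO. Between them in KO stood the innate lymphoid-like cells at 162 CPM, a group of 71 KO cells and 3 WT cells. Ungated cells held 92.1 CPM (non-cycling) and 91.4 CPM (cycling) in WT, levels that did not differ beyond their intervals, and lymphoid-primed-like cells 78.5 CPM. The granule-high groups were low in both libraries, from 37.7 to 53.3 CPM in WT and from 48.0 to 54.2 CPM in KO. The gradient from HSC-like to granule-high cells was thus present in both libraries. Antibody-secreting-like cells, 35 WT cells taken as lacking the receptor, held 10.4 CPM and a thinned UMI in 8.57% of cells at a median of 27856 UMIs per cell. The HSC-like share was 65.8% in WT, at a median of 12432 UMIs, and 58.6% in KO, at a median of 10887 UMIs (81.5% and 73.2% before thinning). Innate lymphoid-like cells had been listed as lacking Kit too, but 67.6% of the KO cells held a UMI, so they do not serve as a background.

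Between the libraries Kit went both ways. In ungated, cycling cells it stood at 91.4 CPM (WT) and 68.8 CPM (KO), a log2 ratio of -0.41 (-0.53 to -0.29), and in HSC-like cells the ratio was -0.24 (-0.39 to -0.09). In granule-high, monocyte-leaning cells it stood at 37.7 CPM (WT) and 54.2 CPM (KO), a log2 ratio of 0.52 (0.37 to 0.67). In ungated non-cycling cells and in the other granule-high groups the ratios were -0.01, -0.00 and -0.03 with intervals on both sides of 0. No group reached 1.5-fold, but the monocyte-leaning ratio passed it under the raised gate (0.65) and without cells holding a mast cell or basophil marker UMI (0.60).

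Csf1r, on chromosome 18 (ENSMUSG00000024621), was highest in granule-high, monocyte-leaning cells in both libraries. The level was 31.6 CPM (29.5 to 33.8) in WT and 19.9 CPM (17.3 to 22.7) in KO, with 13.6 and 11.8 CPM in granule-high cells without a leaning. Megakaryocyte-like cells, taken as lacking the receptor, held 2 UMIs in each library (0.655 and 0.711 CPM), and HSC-like cells 1.58 CPM (WT) and 2.66 CPM (KO). A thinned UMI was seen in 23.8% of the monocyte-leaning WT cells (median 54108.5 UMIs) and 14.4% of the KO cells (median 35180 UMIs), against 0.685% and 0.575% of megakaryocyte-like cells (medians 17874.5 and 14770.5 UMIs). Unthinned, the monocyte-leaning shares were 70.1% and 44.0%. Csf1r thus marked the monocyte side of the granule-high cells, although it was no part of the gate.

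The monocyte-leaning cells gave the 1 receptor and group pair called lower in KO, with a log2 ratio for Csf1r of -0.67 (-0.89 to -0.45), where 1.71% of 7034 genes were called lower in this group. Under a gate raised by 1.5 times the ratio was -0.55, and without cells holding a mast cell or basophil marker UMI it was -0.54, both short of 1.5-fold. In ungated, cycling cells the level was 6.36 CPM (WT) and 3.87 CPM (KO), with the ratio at -0.72 (-1.26 to -0.21), which was not called because the mean was under 10 CPM. The interval for granule-high cells without a leaning ran from -0.43 to 0.02. Csf1r in the free RNA of the WT library, taken from barcodes of 100 UMIs or fewer, stood at 16.4 CPM, which was 1.44 times its level in cells, against 0.890 times in KO. The part of free RNA in these values was not tested beyond a subtraction at 5% of the UMIs, which left the all-cell ratio within its interval. The monocyte-leaning cells of the libraries also differed in their gate markers. Summed monocyte markers stood at 1254 CPM (WT) and 934 CPM (KO), and neutrophil markers at 237 and 481 CPM. Irf8, a monocyte marker, stood at 205 and 122 CPM. Whether the ratios of Csf1r, Kit and Il6ra in this group follow that shift was not tested.

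Csf3r, on chromosome 4 (126024550 to 126044440, plus strand, ENSMUSG00000028859), was present across the stem, ungated and granule-high groups, and of these was lowest in monocyte-leaning cells. In WT it ranged from 23.8 CPM in monocyte-leaning granule-high cells to 40.3 CPM in ungated, non-cycling cells, with 38.0 CPM in HSC-like cells, and in KO from 25.2 to 38.2 CPM over the same groups. Megakaryocyte-like cells held 9.17 and 9.25 CPM, and mast cell-like cells 3.77 and 6.62 CPM. In both libraries the monocyte-leaning cells were the lowest of the granule-high groups, with 30.3 CPM (WT) and 34.8 CPM (KO) for the neutrophil-leaning cells. A thinned UMI was seen in 25.7% of WT and 26.8% of KO HSC-like cells, and in 8.90% and 8.05% of megakaryocyte-like cells. In 0 of the 9 groups did the interval of the log2 ratio between libraries leave 0 out, and at a mean of 10 CPM the ratios ran from -0.09 to 0.20. Within granule-high cells, Csf3r UMIs were seen in 15.3% (9.83 to 22.2) of WT cells with a Csf1r UMI and in 22.0% (19.1 to 25.0) of those without, shares whose intervals overlapped.

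Csf2ra, on chromosome 19 (61223957 to 61228429, minus strand, ENSMUSG00000059326), was highest in neutrophil-leaning granule-high cells. There it stood at 68.4 CPM (61.0 to 76.5) in WT and 68.0 CPM (65.9 to 70.0) in KO. The other granule-high groups held 45.5 to 49.1 CPM, ungated cells 27.0 to 35.5 CPM and mast cell-like cells 20.7 and 19.0 CPM. Over all cells the gene was higher in KO, yet within groups the interval of the ratio lay below 0 in 3 of the 9 and above 0 in none. In HSC-like cells it stood at 46.6 CPM (WT) and 36.7 CPM (KO), a log2 ratio of -0.34 (-0.63 to -0.07), and in ungated, cycling cells at 33.2 and 27.0 CPM, a ratio of -0.30 (-0.50 to -0.10). In neutrophil-leaning cells the ratio was -0.01 (-0.18 to 0.16). The neutrophil-leaning group held 51.8% of all Csf2ra UMIs in KO and 5.47% in WT. The thinned shares there were 45.9% in WT and 39.6% in KO (93.2% and 85.6% unthinned), at medians of 60312 and 42041 UMIs. They compare with 2 of 17 erythroid-like cells in WT (11.8%; median 26819 UMIs), the group taken as lacking the receptor, which was too small to compare between libraries.

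Csf2rb (78325752 to 78353847, plus strand, ENSMUSG00000071713) and Csf2rb2 (78282507 to 78305721, minus strand, ENSMUSG00000071714) are neighbours on chromosome 15 and arose from 1 ancestral gene, so their reads can be confused. Of the 400 windows of 101 bases, the length of the cDNA read, in the last 500 bases of each message, 0 occurred in the other, and over the whole messages 6.85% and 7.09% did. The library kit reads message 3′ ends, the stretch that differs, but read positions were not examined. The division of UMIs between Csf2rb and Csf2rb2 thus remains uncertain to the extent that reads fell further from the end.

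Csf2rb was highest in mast cell-like and basophil-like cells, whose IL-3 receptors use it. Mast cell-like cells held 534 CPM (503 to 566) in WT and 819 CPM (782 to 857) in KO, and basophil-like cells 482 CPM (444 to 522) in WT. The other 8 compared groups lay between 34.4 and 70.2 CPM. In WT the 3 granule-high groups, at 54.0 to 70.2 CPM, stood above the HSC-like, lymphoid-primed-like, ungated and megakaryocyte-like cells, at 34.4 to 39.7 CPM. In KO the same groups overlapped, at 52.3 to 60.3 CPM in granule-high cells and 48.7 to 61.4 CPM in the others.

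The gene was higher in KO with an interval above 0 in 6 of the 9 groups. The log2 ratio was 0.55 (0.30 to 0.80) in HSC-like cells, 0.62 (0.28 to 0.96) in lymphoid-primed-like cells and 0.76 (0.63 to 0.90) in ungated, non-cycling cells. It was 0.35 in ungated, cycling cells, 0.49 (0.11 to 0.87) in megakaryocyte-like cells and 0.62 in mast cell-like cells. The granule-high cells stood apart, with ratios of -0.01 and -0.05 in 2 of their groups and -0.22 (-0.35 to -0.09) in the monocyte-leaning cells. A thinned UMI was found in 23.6% of WT and 34.4% of KO ungated, non-cycling cells (42.6% and 49.7% unthinned; medians 15798 and 13092 UMIs), against 1 of 17 WT erythroid-like cells (5.88%; median 26819 UMIs), too few cells to set a background. Groups of the same name differed in their markers between the libraries. Summed granule markers stood at 885 (WT) and 1385 CPM (KO) in HSC-like and 1639 and 2262 CPM in lymphoid-primed-like cells. In ungated, non-cycling cells they stood at 1740 and 2574 CPM. HSC markers in HSC-like cells stood at 798 and 615 CPM, and lymphoid-primed markers in lymphoid-primed-like cells at 1105 and 701 CPM. Whether the Csf2rb ratios follow these shifts was not tested.

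Csf2rb2 was in the main a mast cell and basophil transcript in these libraries. Mast cell-like cells held 529 CPM (499 to 561) in WT and 1020 CPM (979 to 1063) in KO, a log2 ratio of 0.95 (0.84 to 1.05), with a thinned UMI in 64.3% and 93.1% of cells. Basophil-like cells held 346 CPM in WT. The other 8 compared groups of WT lay between 3.99 and 9.01 CPM. In KO they ran from 3.71 CPM in neutrophil-leaning cells to 18.6 CPM in ungated, non-cycling cells, and the cells of 2 or more gates, at 145 CPM, held 23.1% of the Csf2rb2 UMIs of that library. Within mast cell-like WT cells, 75.6% (64.9 to 84.4) of those with a Csf2rb UMI held one of Csf2rb2, against 33.3% (17.3 to 52.8) of those without. Such cells share depth and library, so these shares are a description.

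Outside mast cell-like cells Csf2rb2 was higher in KO in ungated, non-cycling cells (7.03 CPM in WT, 18.6 CPM in KO, log2 ratio 1.41, 1.12 to 1.69), megakaryocyte-like cells (8.19 and 17.1 CPM, 1.06) and HSC-like cells (7.75 and 14.8 CPM, 0.93). In monocyte-leaning cells it was lower (8.58 and 6.03 CPM, -0.51, -0.93 to -0.10). The shares of cells were low, 5.96% in WT and 10.4% in KO for ungated, non-cycling cells after thinning (10.9% and 17.98% unthinned; medians 15798 and 13092 UMIs), and lay under the share in WT erythroid-like cells, 2 of 17 (11.8%; median 26819 UMIs). That share has an interval from 1.46% to 36.4%, which is too wide to set a background, and no difference is read from the shares. The free RNA of the KO library held 32.3 CPM of Csf2rb2 and that of WT 12.7 CPM, and the part of free RNA in the levels by group was not tested.

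The summed mast cell and basophil markers were higher in KO in each of the 8 groups other than mast cell-like cells. This held in monocyte-leaning cells too, where Csf2rb and Csf2rb2 were lower, though the mast cell list alone was lower in KO there (33.9 and 29.9 CPM). The share of cells with a mast cell marker UMI was lower in KO in these groups except granule-high cells without a leaning (25.0% and 25.5%). In ungated, non-cycling cells it was 49.6% and 42.4%, and that with a basophil marker UMI 32.1% and 48.5%. The highest lymphoid-primed-like cell held 9 thinned UMIs of both lists in WT and 59 in KO. Over the 8 groups other than mast cell-like cells the summed level of the 10 markers ran from 58.3 to 133 CPM in WT and from 64.8 to 231 CPM in KO. It was 113 CPM (WT) and 231 CPM (KO) in ungated, non-cycling cells, 115 and 192 CPM in HSC-like cells and 58.3 and 64.8 CPM in monocyte-leaning cells. Of the 10 markers, Tpsab1 was at 0 in KO HSC-like and KO megakaryocyte-like cells, Fcer1a and Gzmb in KO lymphoid-primed-like cells and Cd200r3 in WT neutrophil-leaning cells, and in the other groups none was. Among cells with no thinned UMI of any of the 10, Csf2rb in ungated, non-cycling cells had a log2 ratio of 0.69 (0.48 to 0.89) over 622 WT and 463 KO cells, and Csf2rb2 one of 0.86 (0.40 to 1.31), in place of 1.41. In HSC-like cells the ratios without such cells were 0.61 (0.22 to 0.98) for Csf2rb and 0.52 (-0.35 to 1.31) for Csf2rb2. In lymphoid-primed-like cells they were 0.46 (0.03 to 0.88) and 0.18 (-0.76 to 1.04), and in megakaryocyte-like cells 0.12 (-0.40 to 0.65) and 0.47 (-0.62 to 1.61). Outside mast cell-like cells every Csf2rb2 call was thus lost, in ungated, non-cycling cells because the mean level fell under 10 CPM, while Csf2rb stayed called in ungated, non-cycling cells and not in lymphoid-primed-like cells. The choice to leave these cells out was made after seeing the data. Over all cells, Csf2rb2 had a ratio of 0.018 once mast cell-like, basophil-like and 2-gate cells were left out, and Csf2rb one of 0.23.

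The pairs called were read against the share of all genes called in the same group. Csf2rb2 was called higher in HSC-like cells, where 2.99% of genes were called higher and 4.24% lower, and in megakaryocyte-like cells, where these shares were 3.69% and 5.06%. Csf2rb and Csf2rb2 were both called higher in lymphoid-primed-like cells (5.36% of genes higher, 7.57% lower; Csf2rb2 at 0.44 and not called under the raised gate), ungated, non-cycling cells (2.39% and 2.13%) and mast cell-like cells (14.3% and 14.2%). The mast cell-like groups of the libraries thus differed in many genes. In ungated, cycling cells 0 receptors were called in either direction, where 1.77% of genes were higher and 1.8% lower. The same held for granule-high cells without a leaning (2.06% and 1.03%) and for those leaning to neutrophil genes (2.88% and 1.84%). In monocyte-leaning cells 2.9% of genes were called higher.

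**Figure D3:**
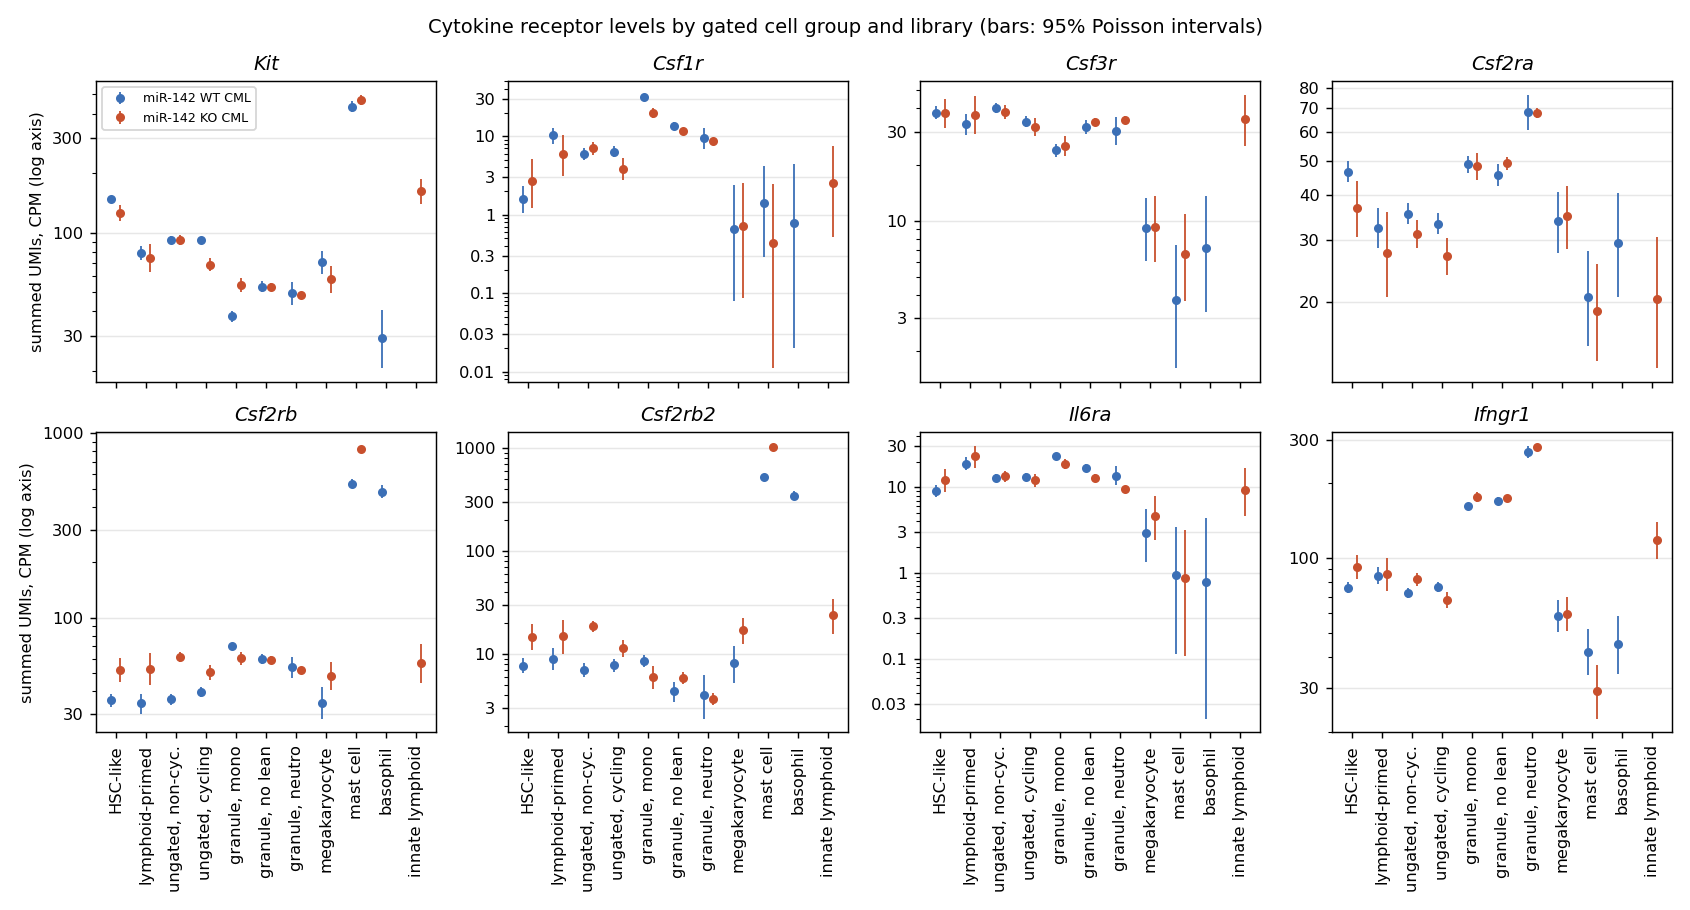
Level of each receptor (summed UMIs as CPM, log axis) in each gated cell group with 50 cells or more, for the WT (blue) and KO (orange) libraries, with 95% Poisson intervals. Among the groups drawn, mast cell-like cells are highest for Kit (434 and 469 CPM), Csf2rb (534 and 819 CPM) and Csf2rb2 (529 and 1020 CPM), and neutrophil-leaning granule-high cells for Ifngr1 (267 and 280 CPM).

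Il6ra, on chromosome 3 (89864059 to 89913196, minus strand, ENSMUSG00000027947), was highest in monocyte-leaning granule-high and lymphoid-primed-like cells. The levels were 23.4 CPM (21.6 to 25.3) and 19.0 CPM (16.0 to 22.4) in WT, and 18.7 CPM and 23.0 CPM in KO, with overlapping intervals in each library. HSC-like cells held 9.05 CPM (WT) and 12.1 CPM (KO), megakaryocyte-like cells 2.95 and 4.62 CPM, and mast cell-like cells 2 UMIs in each library. The thinned shares in monocyte-leaning cells were 17.8% and 14.1%, and 1.37% and 2.87% in megakaryocyte-like cells. Unthinned, the monocyte-leaning shares were 65.2% and 44.4%.

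Il6ra was lower in KO in each of the 3 granule-high groups, with intervals below 0. The log2 ratio was -0.32 (-0.56 to -0.09) in monocyte-leaning cells, -0.38 (-0.59 to -0.17) without a leaning and -0.51 (-0.89 to -0.11) in neutrophil-leaning cells. In the last the level was 13.7 CPM in WT, over 62 UMIs, and 9.62 CPM in KO. In HSC-like, lymphoid-primed-like and ungated cells the ratios ran from -0.11 to 0.42 with intervals on both sides of 0. Its signalling partner Il6st (gp130) had a ratio of -0.48 over all cells and of -0.41 (-0.64 to -0.19) in monocyte-leaning cells, with 26.5 CPM (WT) and 19.9 CPM (KO). It did not follow Il6ra in each group, since its ratio was -0.06 (-0.30 to 0.17) in granule-high cells without a leaning and 0.38 (0.08 to 0.67) in ungated, non-cycling cells.

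Ifngr1, on chromosome 10 (19591949 to 19610229, plus strand, ENSMUSG00000020009), followed the granule programme. Neutrophil-leaning granule-high cells held 267 CPM (252 to 283) in WT and 280 CPM (276 to 284) in KO, and the other granule-high groups 162 to 176 CPM. HSC-like cells stood at 76.1 and 92.1 CPM, lymphoid-primed-like cells at 85.1 and 86.1 CPM, megakaryocyte-like cells at 58.6 and 59.8 CPM and mast cell-like cells at 42.0 and 29.1 CPM. Among the 9 compared groups the step between granule-high and other cells was larger than any difference between libraries within a group. Erythroid-like cells were high too, at 240.4 CPM over 17 WT cells and 205 CPM over 7 KO cells. No group had been set as lacking the receptor. The lowest share was 2.86% in the antibody-secreting-like WT cells, 1 of 35, against 79.7% and 82.1% in neutrophil-leaning cells (98.6% and 98.3% unthinned, at medians of 60312 and 42041 UMIs).

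Within groups the log2 ratio of Ifngr1 ran from -0.53 to 0.27. It was 0.27 (0.09 to 0.45) in HSC-like cells, 0.18 (0.07 to 0.29) in ungated, non-cycling cells and 0.12 (0.04 to 0.20) in monocyte-leaning cells. It was -0.17 (-0.30 to -0.04) in ungated, cycling cells and -0.53 (-1.01 to -0.05) in mast cell-like cells. In HSC-like cells with no thinned mast cell or basophil marker UMI the ratio was 0.63 (0.38 to 0.88). Its partner chain Ifngr2 was higher in KO over all cells, at 30.4 and 45.1 CPM, a log2 ratio of 0.57 that missed 1.5-fold. Unlike Ifngr1 it also had high ratios inside groups, 0.64 (0.51 to 0.78) in granule-high cells without a leaning, 0.68 (0.42 to 0.95) in neutrophil-leaning cells and 1.09 (0.67 to 1.52) in mast cell-like cells.

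Receptors also differed between cycling and other cells, where cycling means 10 or more thinned UMIs of 10 cell cycle genes. Csf2rb2 was lower in cycling cells, at 9.57 against 30.1 CPM in WT and 9.01 against 53.9 CPM in KO. Of the mast cell-like cells, which held the most Csf2rb2, 25.0% in WT and 6.87% in KO were cycling, and inside HSC-like cells the log2 ratio of cycling over other cells was 0.09 (-0.44 to 0.62) in WT and -0.37 (-1.41 to 0.57) in KO. Kit was lower in cycling cells in both libraries, 76.8 against 98.3 CPM and 54.3 against 83.6 CPM. Inside HSC-like WT cells, Kit went the other way, at 160 CPM in 283 cycling and 141.9 CPM in 914 other cells, a log2 ratio of 0.18 (0.06 to 0.29), whereas in HSC-like KO cells it stood at 109 and 133 CPM, a ratio of -0.29 (-0.61 to 0.02). Csf3r in HSC-like cells was lower in cycling cells in both libraries, with 30.8 against 41.7 CPM in WT and 11.4 against 49.5 CPM in KO, the last over 56 cycling cells.

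The likeness of patterns was measured as the Pearson correlation of log2(CPM + 1) over 20 summed profiles, 1 for each library and cell group of 50 cells or more. These profiles come from 2 libraries, and profiles of 1 library share its free RNA, so the values are a description. Among the receptors, Csf2rb and Csf2rb2 were the most alike (r = 0.94), followed by Csf3r and Il6ra (r = 0.89). The genes nearest to Kit were Renbp, Dstyk, Mctp1, 2900097C17Rik and Tmbim1 (r from 0.91 to 0.93). Those nearest to Csf1r were Zfp706, Irf8, Bst2, 5031439G07Rik and Gm17018 (0.92 to 0.96), of which Irf8 is a gate marker. Csf3r was nearest to Glmn, Kcnk12, Erap1, Morc3 and Glg1 (0.91 to 0.94), and Csf2ra to Fcor, Tfec, Rab9, AI662270 and Lta4h (0.90 to 0.93). Csf2rb was nearest to Fcer1g, which encodes the signalling chain of Fc receptors, and to Reep5, Eaf1, Ndufa13 and Sec11c (0.96 to 0.98). For Csf2rb2 the nearest were Furin, Glb1, Nek7, Gabarap and the gate marker Cd200r3 (0.97 to 0.98), and for Il6ra they were Unc93b1, Casp1, Eef2kmt, H2afy and Pou2f2 (0.95 to 0.97). Ifngr1 was nearest to the granule protease gene and gate marker Prtn3 and to Tmem38b, Plac8, Mrps34 and Abhd11 (0.93 to 0.95).

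The ligands of these receptors were scarcely seen in the LSKs. Of 9 ligand genes 0 reached 10 CPM, and Il3, Il34 and Ifng had 0 UMIs in both libraries, where a count of 0 allows up to 3 UMIs. Csf1 had 469 UMIs in WT and 572 in KO, Il6 469 and 513, and the Kit ligand gene Kitl 12 and 5. Of 5 partner chains, 4 were tested, with 0 called higher and 1 lower, Il2rg (the common gamma chain of the IL-2 receptor family), with 42.7 CPM (WT) and 22.7 CPM (KO) (log2 ratio -0.91). Within the compared groups Il2rg stayed short of 1.5-fold, from -0.07 (-0.32 to 0.18) in monocyte-leaning cells to -0.54 (-0.88 to -0.19) in neutrophil-leaning cells. The IL-3 receptor alpha chain Il3ra was near level over all cells, at 34.4 and 37.0 CPM, but in mast cell-like cells it stood at 82.5 CPM (WT) and 127 CPM (KO) (0.62, 0.34 to 0.90), beside both of its beta chains.

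Of 27 other cytokine receptor genes, 15 were tested, 2 were called higher and 2 lower, with a median log2 ratio of 0.00. Those higher were Il1rl1 (the IL-33 receptor; 24.4 and 46.5 CPM, 0.93) and Tgfbr1 (a TGF-beta receptor kinase; 12.97 and 20.4 CPM, 0.65). Those lower were Flt3, a receptor kinase of lymphoid-primed progenitors (48.4 and 29.3 CPM, -0.72), and Il17ra (34.5 and 20.5 CPM, -0.75). Within groups Flt3 went both ways, with ratios of -0.45 (-0.66 to -0.23) in lymphoid-primed-like cells, 0.19 (0.07 to 0.31) in ungated, non-cycling cells and 0.56 (0.39 to 0.73) in monocyte-leaning cells. Of 19 kinase, adaptor and STAT genes, 15 were tested, 0 were higher and 3 lower, Jak3, Stat4 and Fyn, with log2 ratios from -0.64 to -0.94 and a median of -0.35 over the tested genes. These values are over all cells, whose group sizes differed between the libraries, and Jak3, Stat4 and Fyn were not compared by cell group. Of 13 negative regulators, 12 were tested, 0 were higher and 2 lower over all cells. Socs2, a feedback inhibitor of cytokine signalling, stood at 18.1 and 4.70 CPM (-1.94) and Dok2, an adaptor that restrains kinase signals, at 24.6 and 10.9 CPM (-1.18). Socs2 was lower in KO in every compared group, with the largest ratio, -3.02 (-3.74 to -2.38), in HSC-like cells. The smallest was -0.78 (-2.21 to 0.44) in monocyte-leaning cells, at 1.13 and 0.659 CPM. The interval also held 0 in lymphoid-primed-like cells (-1.39, -3.34 to 0.08). Dok2 was not compared by cell group. Socs3, of the same list, stood at 36.0 and 41.5 CPM over all cells (0.20) and was not called. Within every compared group Socs3 was higher in KO, from 0.67 (0.46 to 0.88) in monocyte-leaning cells to 1.21 (0.73 to 1.73) in neutrophil-leaning cells. Over all tested genes 7.64% were called in either direction.

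**Figure D4:**
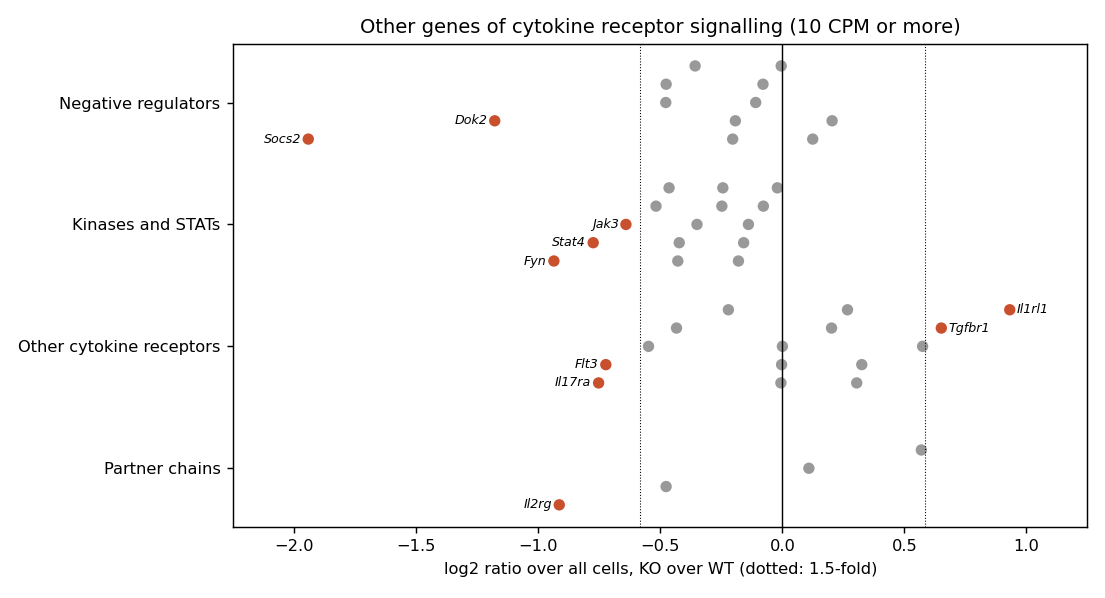
Log2 ratios over all cells of KO over WT (horizontal axis) for the tested genes of 4 lists around the receptors, 1 point for each gene, with those past 1.5-fold (dotted lines) in orange and named. Socs2 at -1.94 is the lowest and Il1rl1 at 0.93 the highest, and the kinases and STATs lie at -0.02 or lower.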

How the data were processed

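Reads were aligned and UMIs counted by the authors with Cell Ranger (version 6.1.2, build mm10 per the submitters' processing notes), and what was deposited are unfiltered matrices of raw UMI counts for every gene and barcode. Cells needed 8000 UMIs and under 10% mitochondrial UMIs, which removed 24 WT and 4 KO barcodes at the mitochondrial step. The UMI cutoff is stricter than the 300 UMIs of the study methods, above which 9216 and 7370 barcodes lay before a mitochondrial filter. About 8000 cells were captured per library per the labels. No doublet caller was run, and an alternative leaves out cells of 2 or more gates and the 6% with most UMIs. Counts were summed by library and cell group, and scaled to CPM. Intervals were exact Poisson for levels, exact conditional binomial for log2 ratios and Clopper-Pearson for shares, at 95%. UMIs and cells are no replicates, so no test was made. Steps were tested on simulated data. A gate needed a least number of marker UMIs, set after looking at the markers, and 3 distinct markers (4 UMIs for HSC and lymphoid-primed genes, 6 for megakaryocyte and erythroid genes, 40 for granule genes, 20 for mast cell, basophil and antibody genes). Named genes were the 8 receptors, pathway genes past 1.5-fold, and the 5 genes most like each receptor. Members, lists and alternatives were chosen with earlier results of these data known. One gene of the kinase list and the seed search of the Kit message are not reported here. Gene models were matched by identifier for 32235 of 32285 genes in GENCODE vM21 (GRCm38, the build mm10). Python 3.11.15, numpy 2.4.6, scipy 1.17.1, pandas 2.3.3 and matplotlib 3.10.9 were used.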

Additional observations from a re-analysis of the deposited data

Results flagged for a closer look

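For 4 receptors the ratio of KO over WT went opposite ways in 2 cell groups, each with a counting interval clear of 0. With 1 library per group, the difference between the groups was not tested. Kit had a log2 ratio of 0.52 in granule-high, monocyte-leaning cells and of -0.41 in ungated, cycling cells. Csf2rb had one of 0.76 in ungated, non-cycling cells and of -0.22 in granule-high, monocyte-leaning cells. Csf2rb2 had one of 1.41 in ungated, non-cycling cells and of -0.51 in granule-high, monocyte-leaning cells, where the level was under 10 CPM in both libraries. Ifngr1 had one of 0.27 in HSC-like cells and of -0.53 in mast cell-like cells.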

How the results depend on the processing

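Of 64 all-cell log2 ratios under 8 alternatives, 36 stayed within the counting interval, 28 moved, and 62 kept their sign, the exceptions being Csf2ra and Csf3r once each, neither of them called. With 1 cell group composition the ratios were -0.053 for Kit, -0.059 for Csf2ra, 0.23 for Csf2rb, 0.80 for Csf2rb2, -0.21 for Il6ra and 0.067 for Ifngr1. With size factors they were -0.26 for Kit, 0.14 for Csf3r, 0.41 for Csf2ra, 0.37 for Csf2rb, 0.78 for Csf2rb2 and 0.87 for Ifngr1. With a cutoff of 16000 UMIs they were -0.46 for Csf1r, 0.42 for Csf2ra, 0.16 for Csf2rb, 0.39 for Csf2rb2 and 0.82 for Ifngr1, and with one of 1000 UMIs -0.40 for Kit. Without 2-gate cells and the 6% of cells with most UMIs they were -0.48 for Kit, -0.023 for Csf1r, -0.00079 for Csf3r, 0.38 for Csf2ra, 0.41 for Csf2rb2, -0.24 for Il6ra and 0.96 for Ifngr1. Without mast cell-like, basophil-like and 2-gate cells, an alternative added after seeing the data, they were -0.44 for Kit, 0.23 for Csf2rb and 0.018 for Csf2rb2. Beyond what each alternative leaves out or reweights, the cause was not tested. At 2-fold, 0 receptors were called higher in place of 2. Under a gate raised by 1.5 times, 0 receptor and group pairs were lower in place of 1, and the count of pairs higher was 8 to 10 under the 4 gate alternatives. Of 280 group ratios under those, 269 stayed within their interval, 11 moved, 255 kept their sign and 0 called ones reversed. Without cells holding a mast cell or basophil marker UMI, 5 pairs of 7 groups were higher in place of 6 and 0 lower in place of 1. The 5 were Csf2rb (0.61), Ifngr1 (0.63) and Il6ra (0.61) in HSC-like cells, Kit in monocyte-leaning cells (0.60) and Csf2rb in ungated, non-cycling cells (0.69), and only the last was among the 6. Of 16 share differences, 8 moved with the thinning. No paired analysis was possible because there was 1 library per group. Where a receptor had few UMIs in a group, a 1.5-fold difference was not detectable at this depth, as for Csf1r in megakaryocyte-like cells (interval -3.67 to 3.91).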

Other observations

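Barcodes with 1000 to 8000 UMIs, not counted as cells above, held far more Kit than the cells did. The 1295 such WT barcodes had 2614 Kit UMIs (513 CPM) and the 1253 KO barcodes 1865 (299 CPM), with a Kit UMI in 72.0% and 60.5% of them without thinning, at median depths of 3396 and 5160 UMIs. In WT the 50 barcodes with most Kit held 486 of these UMIs, and the highest barcode held 21. The genes with the highest fold over the cells there included mast cell genes in WT (Mcpt2, Mcpt4, Mrgprb2, with Tpsb2 at 5817 CPM and Cma1 at 12429 CPM). In KO they included Igkc and the innate lymphoid genes Calca, Il7r, Cxcr6 and Icos. The level of Csf2rb2 in these barcodes was 42.2 CPM (WT) and 91.3 CPM (KO), and that of Csf2rb 95.4 and 97.6 CPM. These genes were chosen after their values were seen. The levels given for mast cell-like cells are those of barcodes with 8000 UMIs or more.

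In KO a Csf3r UMI was about as frequent in cells with a Csf1r UMI as in cells without one. Over all KO cells a Csf3r UMI was present in 23.0% (18.5 to 28.0) of cells with a Csf1r UMI and in 22.4% (21.3 to 23.6) of those without, and the WT shares were 17.8% (13.4 to 22.9) and 23.4% (22.2 to 24.6). Csf2ra and Csf2rb, the chains of the GM-CSF receptor, gave close shares too, with a Csf2rb UMI in 35.9% (33.5 to 38.3) of KO cells with a Csf2ra UMI and in 36.6% (35.1 to 38.2) of those without.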
